A study of Homo sapiens with 2 samples.

Results

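The transcripts of 10 genes of the HNRNPA, D, K and R families were examined for C-to-U edits: HNRNPA0, HNRNPA1, HNRNPA2B1, HNRNPA3, HNRNPAB, HNRNPD, HNRNPDL, HNRNPK, HNRNPR and SYNCRIP. They were chosen by name. Each locus of the isoform models took the GENCODE gene (hg38) with which its exons overlapped most on that strand, and each of the 10 genes received 1 locus. All positions of these loci in both edit tables were kept, out of 12178 loci with an edit in either table.

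There were 2 libraries, 1 per group. Both came from HEK293T cells, a human embryonic kidney line that one label field writes as HEK293XT, fixed in methanol and treated with APOBEC1, a cytidine deaminase, joined to a nanobody against rabbit IgG. In the RBFOX2 library a rabbit antibody to RBFOX2 was added before this enzyme, and the enzyme-only library had no such antibody. Full-length cDNA was sequenced on the PacBio platform. No difference between the groups had a replicate check, so all comparisons are between these 2 libraries, and the exact Clopper-Pearson 95% intervals cover counting error only, since converted reads carry no molecular identifiers here.

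Heterogeneous nuclear ribonucleoproteins are abundant nuclear proteins that coat nascent transcripts and take part in splicing, export, localization, translation and decay of mRNA. Many of them bind their own transcripts or those of relatives, often through alternative exons or introns near the stop codon that send the mRNA to decay. RBFOX2 is a splicing regulator that binds UGCAUG, and APOBEC1 brought near it converts cytosines in the neighbourhood, mostly those that follow A or U.

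Of the 10 genes, 9 were listed in both edit tables. The exception was HNRNPA1, a splicing repressor with 74 isoform models at chr12:54280726-54287086 (plus strand), which had no listed position in either library. Reads were given only for loci with a listed edit, so its depth is unknown. Of 34 loci with at least 70 isoform models, it was the 1 locus in neither table.

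The other 9 genes held 146 RBFOX2 sites and 77 enzyme-only sites, 192 distinct positions in all. Their reads summed to 17389 and 16147, from 717 (HNRNPR) to 5184 (HNRNPA2B1) with RBFOX2 and from 576 to 4913 for the same genes without. Over all genes there were 121930 and 103684 sites. The edit fraction of a site was its converted reads over the reads of the whole locus, and no listed fraction was at or below 0.2%. The minimum number of converted reads therefore rose with depth, from 2 in HNRNPD, HNRNPR and SYNCRIP to 11 (RBFOX2) and 10 (enzyme-only) in HNRNPA2B1. A position that was not listed may still have been edited below that floor. Median edit fractions were 0.281% (RBFOX2) and 0.259% (enzyme-only), so most listed sites lay close to it.

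**Figure D1:**
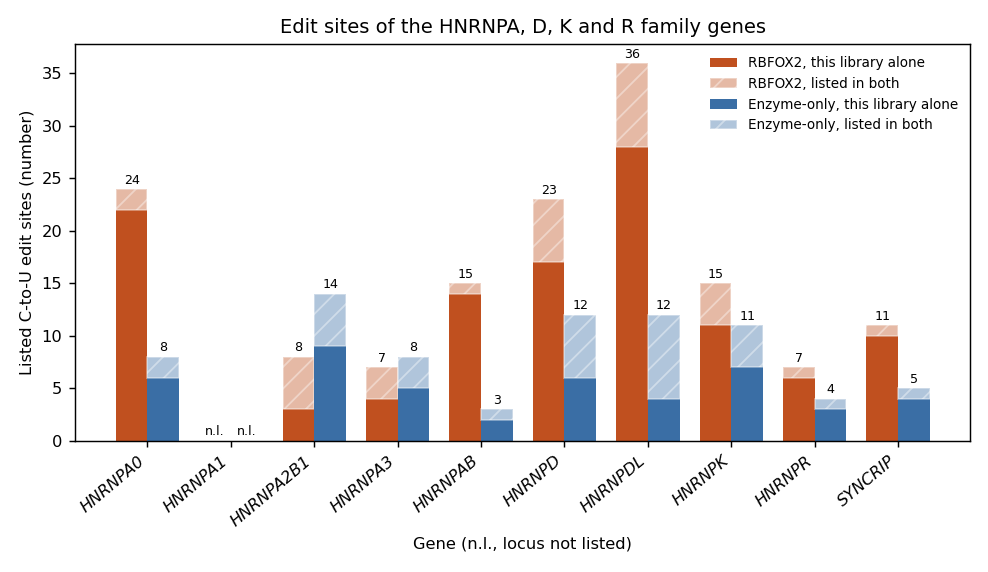
Number of listed edit sites (vertical axis) of each gene (horizontal axis), with RBFOX2 in orange and enzyme-only in blue. Solid bars are sites listed in that library alone and hatched bars those listed in both. HNRNPDL had the highest bar, 36 against 12, and HNRNPA2B1 and HNRNPA3 were the genes with more enzyme-only sites.

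The positions with the highest edit fractions were the same in both libraries. Only 2 sites per library exceeded 1%, both in arginine codons with the trinucleotide UCG. The first was in HNRNPDL, a paralog of the AU-rich element binding protein HNRNPD, and the second in SYNCRIP (hnRNP Q), which is closely related to HNRNPR and takes part in mRNA stability and transport. Protein changes are numbered in the longest annotated coding transcript that contains the position. The 25 bases around each site are shown because these were the most edited positions, with every listed cytosine in a capital and the site itself at the centre (hg38, both on the minus strand).
HNRNPDL R338C, chr4:82427187-82427211: ggtacgaggggtCgtggccgaggtg
SYNCRIP R501*, chr6:85615280-85615304: ccaacaagaggtCgagggcgtggag

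At the HNRNPDL site in exon 5, 40 of 1255 locus reads were converted with RBFOX2, 3.19% (95% interval 2.29 to 4.32). In the enzyme-only library 29 of 1055 were converted, 2.75% (1.85 to 3.92), so the intervals overlapped. The SYNCRIP site in exon 11 was converted in 19 of 998 reads, 1.90% (1.15 to 2.96), and in 12 of 911, 1.32% (0.682 to 2.29). Here too the intervals overlapped. Among all other listed sites the highest fraction was 0.935% (RBFOX2) and 0.758% (enzyme-only).

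In all, 31 positions were listed in both libraries. They made up 21.2% (14.9 to 28.8) of sites with RBFOX2, whereas their share of enzyme-only sites was 40.3% (29.2 to 52.1). Of these, 22 were more edited with RBFOX2 and 9 without, with a median ratio of 1.12 (range 0.536 to 2.63). The intervals overlapped at all 31 positions. Coding sequence held 19 of them and the 3'UTR 12, and 30 of 31 followed A or U. The exception lay in the 3'UTR of HNRNPA2B1, 437 nt after the stop codon, where C preceded the edited C. With RBFOX2 it was converted in 27 of 5184 reads (0.521%; 0.344 to 0.757), and without in 37 of 4913 (0.753%; 0.531 to 1.04). The lowest ratio was also in HNRNPA2B1, at R213C, with 13 reads (0.251%) against 23 (0.468%). The highest was in the 3'UTR of HNRNPD, where 5 of 826 reads (0.605%) stood against 2 of 868 (0.230%). These extremes rested on few reads.

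**Figure D2:**
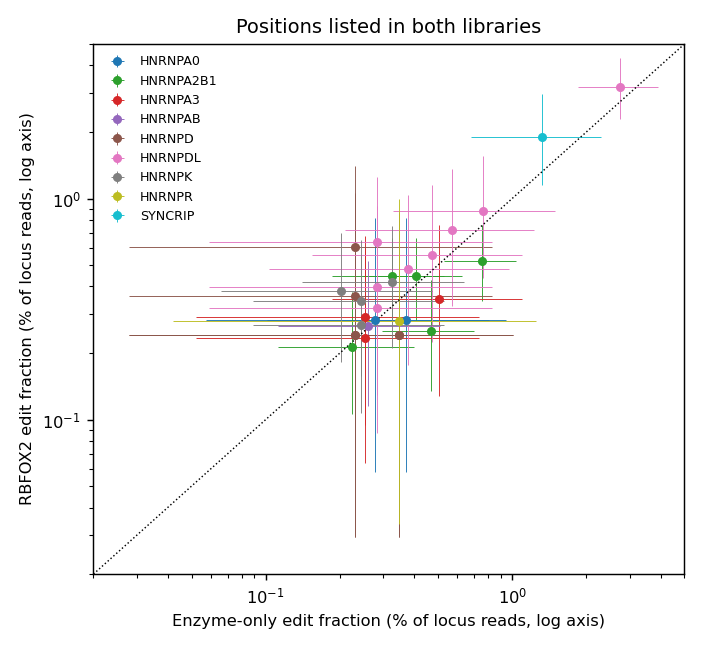
Edit fraction in the RBFOX2 library (vertical, % of locus reads, log axis) against the enzyme-only library (horizontal, same scale) for the 31 positions listed in both, coloured by gene. Bars are exact 95% intervals for counting error and the dotted line marks equal fractions; the points lie along it, with HNRNPDL R338C and SYNCRIP R501* at the top right.

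Positions listed in both libraries were set aside, as edits common to all libraries were treated as putative variants in the study. That left 115 RBFOX2 sites and 46 enzyme-only sites. To allow for the floor, each locus was then counted at the higher of its minimum numbers of converted reads in the libraries, which left 115 and 36. Their log2 ratio, scaled by the totals of all genes counted in the same way (109221 and 85900), was 1.32 (0.78 to 1.91), RBFOX2 over enzyme-only. The intervals of log2 ratios treat each site as an independent count. Neighbouring sites can lie on the same reads, so these intervals may be too narrow. Deeply sequenced genes as a whole held relatively more RBFOX2 sites, 7722 against 3800 in genes of 500 or more reads in both libraries, a group that includes all 9 listed members. Scaled by those, the log2 ratio was 0.64 (0.10 to 1.24). With the shared positions kept, it was 0.87 (0.44 to 1.32) on the scale of all genes. Without scaling the site numbers of the members differed by a ratio of 3.19, and those of the deep genes by 2.03.

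Of the 9 listed genes, 8 had more RBFOX2 sites and 1, HNRNPA2B1, had more enzyme-only sites at the common minimum. More RBFOX2 sites were also found in 70.7% of the 771 deep genes with a site. A ratio was called only where the libraries together held at least 20 sites, which was so in HNRNPA0, HNRNPD and HNRNPDL. All 3 had a log2 ratio over 1, where 15.9% of the 3471 genes did, and 0 had one under -1, where 12.9% did. These 3 met the limit mainly through their RBFOX2 sites (22, 17 and 28, against 6, 6 and 4 enzyme-only sites). The limit thus favoured ratios over 1 among the members that passed, and their number is not separate support for a difference. Scaled by the deep genes, 1 of the 3, HNRNPDL, was over 1 and 0 were under -1, where 25.2% and 13.1% of 206 genes were. The call for HNRNPA0 and HNRNPD thus depended on the scale.

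**Figure D3:**
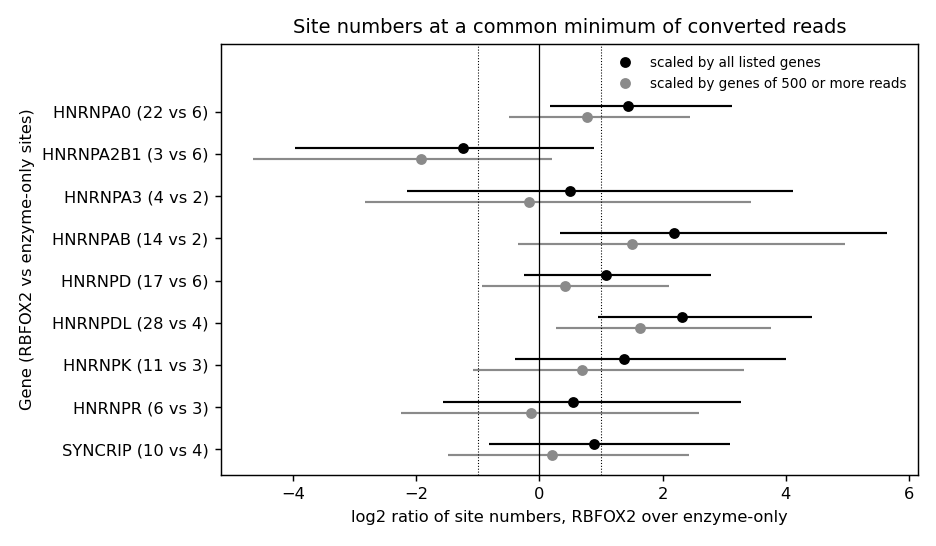
log2 ratio of site numbers, RBFOX2 over enzyme-only (horizontal), for each gene (vertical, with both site numbers). Black points are scaled by all listed genes and grey points by genes of 500 or more reads. Bars are exact 95% intervals for counting error that treat sites as independent, and dotted lines mark -1 and 1. With intervals that may be too narrow for sites in runs, HNRNPDL is the 1 gene with an interval above 0 on both scales.

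Among the A and A/B type genes, whose proteins carry a pair of RNA recognition motifs and a glycine-rich tail, HNRNPA0 and HNRNPAB held more RBFOX2 sites and HNRNPA2B1 did not. HNRNPA0 (chr5:137750435-137754700, minus strand), an intronless gene whose protein binds AU-rich elements, had 1069 and 1082 reads with 24 RBFOX2 sites and 8 enzyme-only sites. Of these, 22 and 6 were unshared, a log2 ratio of 1.44 (0.18 to 3.12) on all genes and 0.77 (-0.50 to 2.44) on deep genes. Converted reads summed over sites came to 87.9 (RBFOX2) and 26.8 (enzyme-only) per 1000 locus reads. The 3'UTR held 18 of the 22 unshared RBFOX2 sites and 2 of the 6 enzyme-only sites.

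The largest run of HNRNPA0 lay 232 to 288 nt after the stop codon, with 7 RBFOX2 sites in 57 nt. It included the unshared site with the highest edit fraction of any member, 10 of 1069 reads (0.935%; 0.449 to 1.71), 265 nt after the stop codon. The enzyme-only library listed 1 position of that stretch, which was shared. HNRNPAB (chr5:178204530-178216387, plus strand), a relative of HNRNPD that also acts in transcription, had 3002 and 3084 reads with 15 and 3 sites. Unshared sites numbered 14 and 2, a log2 ratio of 2.19 (0.34 to 5.64) on all genes and 1.51 (-0.34 to 4.96) on deep genes. Here 11 of the 14 RBFOX2 sites were in the 3'UTR of exon 8, 5 of them within 75 nt. Both positions with the most reads, 18 of 3002 (0.600%; 0.356 to 0.946) each, lay in that exon, 145 and 416 nt after the stop codon. The most edited sites of both genes are shown with their neighbours, since their 3'UTRs held most of the RBFOX2 sites (HNRNPA0 on the minus strand, HNRNPAB on the plus strand).
HNRNPA0 3'UTR, chr5:137752872-137752896: tttttattattaCttggaCcttggt
HNRNPAB 3'UTR, chr5:178210756-178210780: ccatggaaatcaCtctcctgttgaC
HNRNPAB 3'UTR, chr5:178211027-178211051: gtgttaattttaCtgtaCtttttgg

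HNRNPA2B1 (chr7:26173535-26201329, minus strand), a splicing factor that also carries mRNAs in the cytoplasm, was the most deeply read of the listed members. It had fewer RBFOX2 sites, 8 against 14. At the common minimum of 11 reads, 3 unshared RBFOX2 sites stood against 6 enzyme-only sites, a log2 ratio of -1.24 (-3.97 to 0.88) on all genes and -1.92 (-4.65 to 0.20) on deep genes. The intervals include 0, and the gene had too few sites for a call. At a common minimum edit fraction the log2 ratio was 0.09. Its 9 sites were unchanged there, and only the scale set by all genes had moved. Converted reads of HNRNPA2B1, summed over sites as listed, came to 26.2 (RBFOX2) and 42.5 (enzyme-only) per 1000 locus reads. The minimums there were 11 and 10 reads, so sites with 10 reads could be listed in the enzyme-only library alone. In exon 6, 4 enzyme-only sites lay within 40 nt, at N206N, S212L, R213C and F219F, of which R213C was also listed in the RBFOX2 library.

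HNRNPA3 (chr2:177212741-177223856, plus strand), a relative of HNRNPA2B1 with similar RNA targets, had 7 and 8 sites at 1716 and 1188 reads. Its unshared sites numbered 4 and 5 as listed, but 4 and 2 at the common minimum of 4 reads, so the direction depended on that minimum. The log2 ratio was 0.50 (-2.15 to 4.12) on all genes and -0.17 (-2.83 to 3.44) on deep genes. Among its unshared RBFOX2 sites, Q357* and a position 303 nt after the stop codon had the most reads, 5 of 1716 each (0.291%; 0.0947 to 0.679). Among the enzyme-only ones, H207H and N340N did, with 4 of 1188 each (0.337%; 0.0918 to 0.860).

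The D family gave the most sites. HNRNPD (AUF1; chr4:82352499-82374159, minus strand), which binds AU-rich elements and promotes decay of mRNA, had 826 and 868 reads with 23 and 12 sites, 17 and 6 unshared. The log2 ratio was 1.08 (-0.25 to 2.79) on all genes and 0.41 (-0.93 to 2.11) on deep genes. In the RBFOX2 library 5 sites fell within 55 nt of exon 8, from codon 348 across the stop codon to 28 nt after it, and the enzyme-only library listed none there. All HNRNPD sites rested on 2 to 5 converted reads. HNRNPDL (chr4:82423204-82430456, minus strand) had 1255 and 1055 reads with 36 and 12 sites, 28 and 4 unshared, a log2 ratio of 2.32 (0.95 to 4.43) on all genes and 1.64 (0.27 to 3.76) on deep genes. Its converted reads summed to 163 per 1000 locus reads against 71.1, the highest of the family in both libraries.

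The largest run of sites in any member was in the 3'UTR of HNRNPDL. There, 16 RBFOX2 sites lay within 202 nt of exon 8 (chr4:82424650-82424851), 55 to 256 nt after the stop codon, with 3 to 11 converted reads each. The largest enzyme-only group was in the same stretch, 4 sites over 66 nt, and all 4 were among the 16. Exon 8 was part of 38 of the 40 isoform models. The unshared RBFOX2 site with the most reads was in that run, 7 of 1255 (0.558%; 0.225 to 1.15), and the enzyme-only one was T282I in exon 4, 5 of 1055 (0.474%; 0.154 to 1.10). With shared positions kept, the log2 ratio of HNRNPDL fell to 1.23 (0.30 to 2.35) on all genes. Leaving HNRNPDL out, the members together had a log2 ratio of 1.08 on all genes.

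The coding sequences of HNRNPD and HNRNPDL aligned over 1046 nt with 68.4% identity. Of 115 columns in which both had a cytosine, 7 were edited in HNRNPD and 12 in HNRNPDL in either library, and 4 were edited in both. These were T108I with T159I, T193I with T244I, Q268* with Q320*, and Y355Y with Y420Y, the last being the codon before the stop in either gene. All 8 were listed in the RBFOX2 library with 2 to 5 converted reads, and 1 of the 8, HNRNPD T108I, was also listed in the enzyme-only library. The 4 other pairs compared in this way had few edited columns to match. HNRNPAB had 2 such columns against 11 in HNRNPD and 1 against 11 in HNRNPDL, and 0 were in common. HNRNPR and SYNCRIP had 2 and 4 with 0 in common, and HNRNPA2B1 and HNRNPA3 had 2 each with 1 in common. The matched sites are shown in pairs because they let the contexts be compared (all on the minus strand).
HNRNPD T108I, chr4:82359595-82359619: ttagctgggacaCtacaaagaaaga
HNRNPDL T159I, chr4:82428402-82428426: tgagctgggataCaagcaaaaaaga
HNRNPD T193I, chr4:82358690-82358714: tttctccagataCacctgaagagaa
HNRNPDL T244I, chr4:82428049-82428073: tgagcccggataCttCtgaagaaca
HNRNPD Q268*, chr4:82356835-82356859: cagcaacagcaaCagtggggatcta
HNRNPDL Q320*, chr4:82427241-82427265: cagcaacagcaaCaacaaaaaggtg
HNRNPD Y355Y, chr4:82355325-82355349: ctacaaaccataCtaaattattCca
HNRNPDL Y420Y, chr4:82426050-82426074: ttaccagccataCtaaaggagaaCa

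HNRNPK (chr9:83968084-83980630, minus strand), whose KH domains bind C-rich RNA and DNA, had 2622 and 2470 reads with 15 and 11 sites. Unshared sites numbered 11 and 7 as listed and 11 and 3 at the common minimum of 6 reads, a log2 ratio of 1.37 (-0.39 to 4.01) on all genes and 0.69 (-1.07 to 3.33) on deep genes. The RBFOX2 site with the most reads among the unshared was D262D, 15 of 2622 (0.572%; 0.321 to 0.942). In exon 15, 4 RBFOX2 sites lay within 13 nt, T389I, T390I, Q391* and T393I, with 11, 10, 6 and 8 converted reads. The enzyme-only library listed 1 of them, T390I, with 5 reads. A stop codon at Q412* was listed in both libraries, with 11 and 8 reads. The run in exon 15 is shown because it was the tightest group of edited cytosines in the family (minus strand).
HNRNPK exon 15, chr9:83970745-83970769: attattaCtaCaCaagtaaCtattc

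HNRNPR and SYNCRIP, which carry several RNA recognition motifs, had fewer listed sites than HNRNPK. HNRNPR (chr1:23303772-23344322, minus strand) had 717 and 576 reads with 7 and 4 sites, 6 and 3 unshared, a log2 ratio of 0.55 (-1.57 to 3.28) on all genes and -0.13 (-2.25 to 2.60) on deep genes. SYNCRIP (chr6:85611086-85643863, minus strand) had 998 and 911 reads with 11 and 5 sites, 10 and 4 unshared, a log2 ratio of 0.88 (-0.82 to 3.10) on all genes and 0.20 (-1.49 to 2.43) on deep genes. Neither pair of site numbers differed beyond counting error. In both genes the RBFOX2 library listed adjacent tyrosine codons edited at the third base, Y467Y and Y468Y in HNRNPR (2 and 3 reads) and Y486Y and Y487Y in SYNCRIP (3 reads each). These positions were not listed in the enzyme-only library, where up to 1 converted read would have been under the floor. They are shown for the repeated context of the edited bases (both on the minus strand).
HNRNPR Y467Y and Y468Y, chr1:23310952-23310976: CcctccagattaCtaCggctatgaa
SYNCRIP Y486Y and Y487Y, chr6:85615323-85615347: gtatgaCgattaCtaCtattatggt

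**Figure D4:**
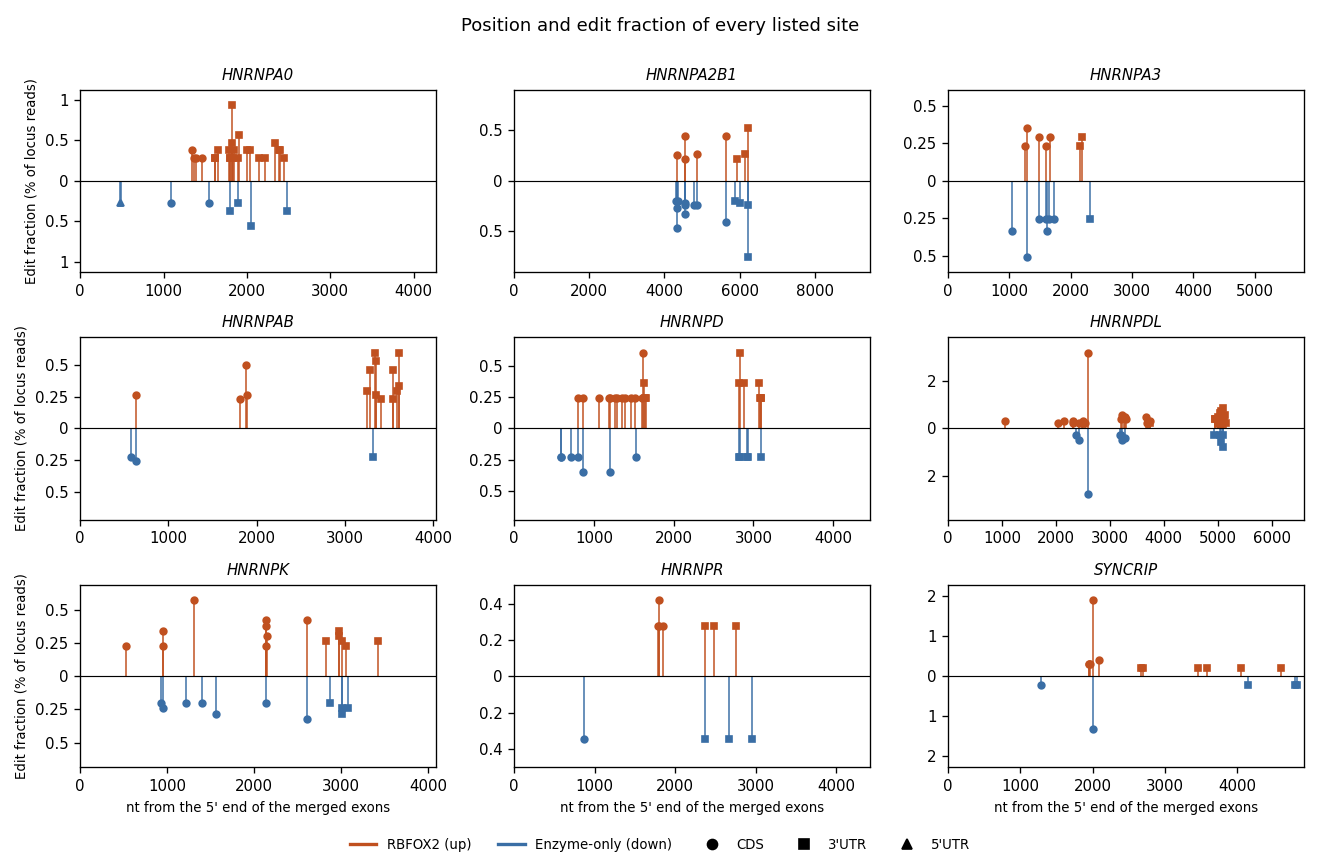
Edit fraction (% of locus reads) of every listed site along the merged exons of the 9 listed genes, in nt from the 5' end, with RBFOX2 upward in orange and enzyme-only downward in blue. Circles are coding, squares 3'UTR and triangles 5'UTR positions, and each gene has its own vertical scale; the single high sites of HNRNPDL and SYNCRIP stand out in both directions, and the 16 RBFOX2 sites in the last exon of HNRNPDL form the largest run.

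The libraries could not be separated at single unshared sites. For 11 of the 115 unshared RBFOX2 sites, 6 of them in HNRNPAB, the interval lay wholly above the floor of 0.2%, and the same was true of 1 of the 46 enzyme-only sites. Set against the most reads that an unlisted position could have had in the other library, 0 of 115 and 0 of 46 had intervals that did not overlap. This bound is the least favourable case, and a site with few reads above the floor could not have passed it. Whether single unshared positions differed between the libraries could thus not be decided.

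Listed sites of these genes were rarely near the RBFOX2 motif, which itself lay in exons of few isoform models. The merged exons held 7 copies of UGCAUG: 2 in HNRNPA1, 2 in HNRNPAB and 1 each in HNRNPA3, HNRNPD and HNRNPDL, with none in HNRNPA0, HNRNPA2B1, HNRNPK, HNRNPR or SYNCRIP. Within 50 nt of a copy on the same strand lay 1 of 115 unshared RBFOX2 sites, 0.870% (0.0220 to 4.75), where exonic cytosines of the same genes, weighted by sites, gave 1.09%. This corresponds to a ratio of 0.797 (0.0202 to 4.35). Of the enzyme-only sites it was 0 of 46, with an interval reaching 7.71%, where exonic cytosines gave 0.758%. In the other deep genes, 5.86% (5.34 to 6.41) of RBFOX2 sites lay within 50 nt, a ratio of 2.11 (1.92 to 2.31), against 1.79% (1.42 to 2.22) of enzyme-only sites and a ratio of 0.757 (0.602 to 0.938). The intervals of the RBFOX2 ratios overlapped, so with so few copies of the motif a difference between the members and other deep genes was not detectable. Each copy also lay in a minority of the models of its locus, from 1 of 59 (HNRNPD) to 9 of 40 (HNRNPDL). Edit fractions were taken over all reads of the locus, so edits in such exons may have stayed below the floor. The expected shares count the cytosines of these exons in full.

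The 1 site near a copy was L213L of HNRNPD, 2 of 826 reads (0.242%; 0.0293 to 0.872), 50 nt from it. That copy lay in an exon of 1 of the 59 HNRNPD isoform models, which the annotation gives as a non-coding exon, while the edited position was in 36. It is shown with the motif in capitals (minus strand).
HNRNPD motif, chr4:82357467-82357492: gtcaataaaaTGCATGttagcatatt

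The base before the edited cytosine was nearly always A or U. In the RBFOX2 library 113 of 115 unshared sites followed A or U, 98.3% (93.9 to 99.8), and in the enzyme-only library 43 of 46, 93.5% (82.1 to 98.6). Exonic cytosines of the same genes gave 47.1% and 50.5%. A alone preceded 64.3% (54.9 to 73.1) and 65.2% (49.8 to 78.6) of sites, against 22.3% and 23.7% of exonic cytosines. The intervals of the libraries overlapped. In other deep genes the shares with A or U were 87.9% (87.2 to 88.6) and 77.2% (75.9 to 78.4), both below the intervals of the members. The share among all exonic cytosines of those genes was not taken, so a difference in base composition cannot be told apart from one in the edits.

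**Figure D5:**
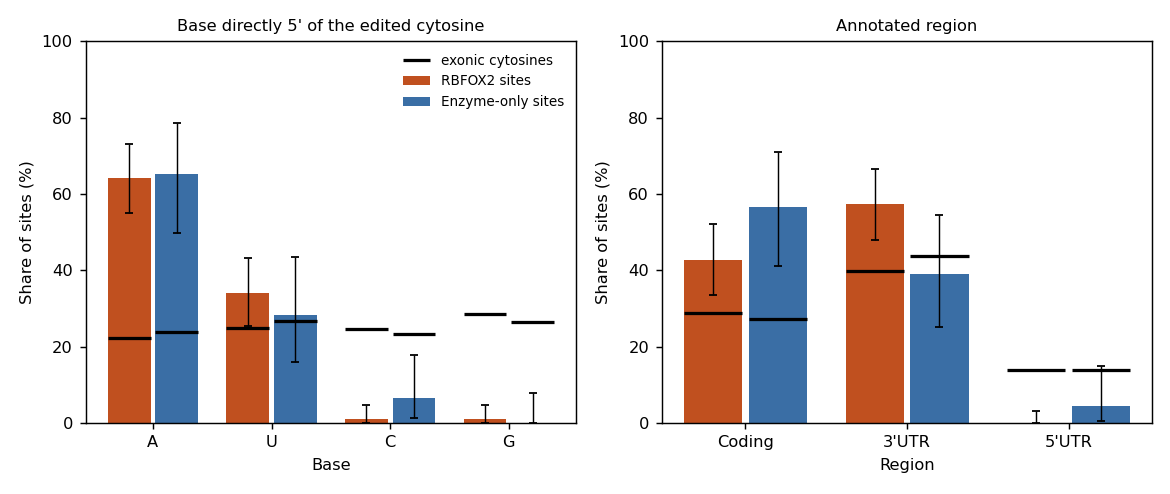
Share of unshared sites (%) by the base directly 5' of the edited cytosine (left) and by annotated region (right) in the RBFOX2 (orange, 115 sites) and enzyme-only (blue, 46 sites) libraries, with exact 95% intervals. Black lines give the share among exonic cytosines of the same genes, weighted by sites; A stands far above its line in both libraries.

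Of the unshared RBFOX2 sites, 66 of 115 were in 3'UTRs, 57.4% (47.8 to 66.6), and 49 in coding sequence, 42.6% (33.4 to 52.2). Of the enzyme-only sites, 18 of 46 were in 3'UTRs, 39.1% (25.1 to 54.6), 26 in coding sequence, 56.5% (41.1 to 71.1), and 2 in the 5'UTR of HNRNPA0. The intervals of the libraries overlapped for both regions. Exonic cytosines gave 39.7% and 43.7% for 3'UTRs and 28.9% and 27.3% for coding sequence. In exons of the isoform models that the annotation gives as intron lay 0 of 115 sites, with an interval reaching 3.16%, and 0 of 46, reaching 7.71%, where exonic cytosines gave 15.3% and 7.69%. Where few models contain such an exon, its edits may have stayed below the floor, which applies to reads of the whole locus.

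Within coding sequence, 27 of the 49 RBFOX2 sites were synonymous, 14 changed an amino acid and 8 made a stop codon. In the enzyme-only library these numbers were 14, 11 and 1 of 26. Of the 2521 coding cytosines of the genes, 39.5% would give a synonymous change, 51.1% an amino acid change and 9.40% a stop codon. The third base of NAC codons, which encode tyrosine, histidine, asparagine and aspartate, made up 44 of the 94 distinct coding positions of either library (46.8%), against 284 of the 2521 (11.3%). This base always follows A, so its share cannot be told apart from the frequent A before edited cytosines. No share among coding cytosines after A was taken. Threonine to isoleucine changes, 9 of 49 and 4 of 26, were the most common change of an amino acid in both libraries. HNRNPDL held 5 of the 8 RBFOX2 stop sites, Q96*, Q297*, Q320*, Q400* and R408*, with 3 to 6 converted reads each.

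The share of an isoform's exonic cytosines that were listed, after the editsC of the study, was compared over 586 isoform models. Shared sites were set aside, and the other sites were taken as listed, without the common minimum. The study assigned reads to isoforms, whereas here each position of a locus was given to every model containing it. The isoform values therefore largely restate the site numbers of the locus. Isoforms of a gene share positions and are not independent. The median was 1.89% (RBFOX2) and 1.40% (enzyme-only), with 309 isoforms higher in the former, 162 higher in the latter and 115 equal, 74 of these from HNRNPA1. Those 74 models entered as 0% in both libraries although the depth of that gene is unknown, which can only lower the medians. All 40 HNRNPDL and all 105 HNRNPK isoforms were higher in the RBFOX2 library. The HNRNPA2B1 isoforms ran the other way, with 110 of 115 higher in the enzyme-only library. Among isoforms with at least 300 exonic cytosines, the largest differences were in 2 HNRNPDL isoforms, with 28 and 26 RBFOX2 sites against 4 each (8.26% against 1.18% and 8.10% against 1.25%). The differences furthest in the other direction were in 2 HNRNPA2B1 isoforms, each with 3 RBFOX2 and 9 enzyme-only sites (0.990% against 2.97% and 0.974% against 2.92%). Sites not in every isoform included N304N and Y320Y in exon 7 of HNRNPD, which 22 and 23 of its 59 models contained, so their fractions of the whole locus are lower than among reads of that exon.

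The other hnRNP genes were counted for comparison. Of 19, 17 were listed in either table, with 203 RBFOX2 and 109 enzyme-only sites, and 10 had more RBFOX2 and 5 more enzyme-only sites. Among the 5 was HNRNPU, which was listed in the enzyme-only table alone, with 2 sites. Only 4 had at least 20 sites, and 1, HNRNPH3, had a log2 ratio over 1, 2.22, from 50 and 8 sites. Of 4 related genes of the A/B type, all were listed in either table, with 26 and 46 sites. MSI1 was listed in the enzyme-only table alone, at 79 reads, and gave 16 of the 46. More enzyme-only sites were found in 3 of the 4 genes, MSI1 among them, and more RBFOX2 sites in 1, TARDBP. TARDBP had a log2 ratio over 1, 1.10, from 20 and 7. None of these genes with at least 20 sites was under -1. All these ratios were scaled by all genes, where 15.9% of 3471 genes were over 1 and 12.9% under -1. They were not taken on the deep-gene scale, which is the stricter one for ratios over 1.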

How the data were processed

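Per the labels, libraries were made with a PacBio Iso-Seq kit and processed on hg38. Per the study's methods, the authors mapped consensus reads using pbmm2, retained only primary alignments, and found C-to-U edits with custom code. The methods also describe another kit and replicates not analysed here, and the collapse tool behind the isoform models is not given in the sources used here. The authors deposited a count of converted reads and a count of locus reads for every listed position, 1 library per table. They also deposited the edit fraction, which is the former over the latter, and a confidence fraction that was not used. The labels number the libraries 1 and 2.

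Loci were matched to GENCODE 44 by exonic overlap (bedtools 2.31.1). Regions were ordered coding sequence, 3'UTR, 5'UTR, non-coding exon, intron. Log2 ratios used a pseudocount of 0.5, with intervals from scipy 1.17.1. No test was made, with 1 library per group. Expected shares were taken from every exonic cytosine of a gene and weighted by its sites, without shuffling. Coding sequences were aligned globally with Biopython 1.88 (match 2, mismatch -1, gap opening -8, gap extension -0.5). The ratio and motif calculations were tested on simulated data. Variants in dbSNP were not removed. The genes, gene lists and comparisons were chosen with earlier results of these data known. Sites named singly were, per gene and library, the unshared one with the most converted reads, and sites listed in both libraries with at least 5 converted reads in either. Other sites, the runs, the codon classes and the aligned pairs were chosen after their values were seen. Alternatives were windows of 20 and 200 nt, GCAUG, the shared sites kept, sites as listed, a common minimum edit fraction, scaling by locus reads, other minimum numbers of sites, and 3'UTR before coding sequence. Scaling by deep genes and leaving out HNRNPDL were added after seeing the data.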

Additional observations from a re-analysis of the deposited data

How the results depend on the processing

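No paired analysis was possible because each group consisted of a single library, and their label numbers, 1 and 2, differ. Of 101 alternative values, 88 stayed within the counting interval or within 1.5 times the reported count. The log2 ratio over all members stayed above 0 under every alternative run, but the sign of 3 single genes, whose reported intervals include 0, did not hold. HNRNPA3 (reported 0.50) was at -0.55 with sites as listed, -0.16 at a common minimum edit fraction and -0.17 on the deep-gene scale. HNRNPR (reported 0.55) was at -0.24 and -0.13 under the last 2 of these. HNRNPA2B1 (reported -1.24) was at 0.09 at the common minimum edit fraction, where its 9 sites were unchanged and only the scale had moved. The log2 ratio over all members, reported as 1.32, was 0.87 (0.44 to 1.32) with shared sites kept and 1.05 with sites as listed. It was 1.56 when scaled by locus reads, 0.64 when scaled by deep genes and 2.68 at a common minimum edit fraction. That last setting by construction can ask for 1 converted read more in the library with more locus reads. It also moved the scale set by all genes toward enzyme-only sites. HNRNPA2B1 and HNRNPK kept 9 and 14 sites there, yet their log2 ratios rose from -1.24 to 0.09 and from 1.37 to 2.70. The value of 2.68 thus largely reflects that scale. The number of genes with a log2 ratio over 1, reported as 3, was 1 on the deep-gene scale, 1 at the common minimum edit fraction, 5 with at least 10 sites and 0 with at least 50 sites. The motif ratio of the RBFOX2 sites, which rests on 1 site, was 0 in a window of 20 nt. Counting 3'UTR before coding sequence gave 82.6% (RBFOX2) and 67.4% (enzyme-only) of sites in 3'UTRs. Keeping shared sites raised the enzyme-only sites from 46 to 77. The minimum of 2 converted reads changed nothing by construction, and no member locus had at most 500 reads, so that alternative gave no value. Depth set the floor at 2 to 11 converted reads, and most sites lay just above it.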
